A study of Mus musculus with 6 samples.

Results

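The miR-15/16 family comprises microRNAs (miRNAs) that restrain cell division, and its levels were compared between extracellular vesicles (EVs) released by cortical astrocytes and by neural stem cells (NSCs). The members are 5 mature miRNAs, namely mmu-miR-15a-5p, mmu-miR-15b-5p, mmu-miR-16-5p, mmu-miR-195a-5p and mmu-miR-497a-5p, out of 902 mature miRNA rows in the count table. They were chosen by name, with earlier results of these data known. Small RNA was sequenced from 3 astrocyte EV libraries and 3 NSC EV libraries, and there were no other groups or treatments. All cells were primary cultures from CD1 mice. The astrocytes were grown from dorsal cortices of pups at postnatal day 4, were shaken free of microglia and oligodendrocytes and were kept in medium with 2% fetal bovine serum, while the labels call the NSCs neonatal and place them in the subventricular zone. EVs were the pellet of serial centrifugation.

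A miRNA guides a silencing complex to mRNAs that pair with its seed, which is the run of bases 2 to 8 counted from its 5′ end, and miRNAs that share a seed can act on the same mRNAs. The miR-15/16 family is known for lowering G1 cyclins, cyclin-dependent kinases and the survival protein BCL2, and it was first described as a pair of miRNAs lost in chronic lymphocytic leukaemia. In the heart and other tissues the family rises as cells leave the cell cycle after birth. Each miRNA is cut from a hairpin, whose other arm (here the 3p arm) is mostly degraded.

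The mature sequences are shown because the seed defines the family and because their near identity bears on how reads could be assigned. They were taken from RefSeq (GRCm38.p6, where 5 of 5 members were found), are written 5′ to 3′, and have bases 2 to 8 in capitals.
mmu-miR-16-5p: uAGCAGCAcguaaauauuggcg
mmu-miR-195a-5p: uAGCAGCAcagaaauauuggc
mmu-miR-15a-5p: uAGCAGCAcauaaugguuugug
mmu-miR-15b-5p: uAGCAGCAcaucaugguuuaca
mmu-miR-497a-5p: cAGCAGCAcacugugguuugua

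All 5 members had the same seed. Aligned from the 5′ end without gaps, miR-16-5p matched miR-195a-5p at 19 of 21 bases and miR-497a-5p at 11 of 22, and miR-15a-5p matched miR-15b-5p at 18 of 22. The loci encode them in pairs on GRCm38 (mm10). MiR-15a-5p (chromosome 14, 61632075 to 61632096, minus strand) and one copy of miR-16-5p (61631936 to 61631957) start 139 bases apart in an intron of the noncoding RNA gene Dleu2. MiR-15b-5p (chromosome 3, 69009775 to 69009796, plus strand) and the other copy of miR-16-5p (69009918 to 69009939) start 143 bases apart in an intron of Smc4, a condensin gene. MiR-497a-5p (chromosome 11, 70234730 to 70234751, plus strand) and miR-195a-5p (70235062 to 70235082) start 332 bases apart, and GENCODE vM21 annotates only miRNA genes there.

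MiR-16-5p was the abundant member and was lower in EVs of astrocytes than in those of NSCs. It had 308, 450 and 558 counts in astrocyte EV replicates 1, 2 and 3, and 1278, 2010 and 1148 counts in NSC EV replicates 1, 2 and 3. After TMM scaling to 1000000 mature miRNA counts (CPM), these were 1463, 2267 and 1756 CPM in astrocyte EVs and 4285, 9031 and 7103 CPM in NSC EVs. Every astrocyte EV library lay below every NSC EV library, and many other mature miRNAs were also separate, in either direction. The share of mature rows so separated was not counted, and the separation is not read as particular to miR-16-5p. The means were 1829 ± 407 CPM (SD, n = 3) and 6806 ± 2386 CPM (SD, n = 3), a level 3.72-fold higher in NSC EVs. The log2 fold change, which is astrocyte EVs minus NSC EVs throughout, was -1.90 (SE 0.38, with an adjusted p of 0.00666 by the quasi-likelihood test of edgeR). By mean CPM, miR-16-5p ranked 52nd of the mature rows in astrocyte EVs and 20th in NSC EVs. These levels are relative to all mature miRNA counts. Whether fewer EVs carried it, each EV carried less or other miRNAs took more of the counts cannot be told apart in bulk libraries.

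The call of miR-16-5p held in 18 of 18 alternative settings, with log2 fold changes from -2.68 to -1.66 and adjusted p-values up to 0.0321. These settings are not independent. The hairpin rows mir-16-1 and mir-16-2 hold nearly the same counts as the mature row, and leaving out marker miRNAs of other cells kept the counts of miR-16-5p unchanged. The value of -2.68 came from library sizes taken from all rows other than hairpins, which moved the median of all tested mature miRNAs from -0.06 to -0.92 (-0.16 without TMM), so values under that setting are to be read beside that median. With the replicate left out that lowered it most, astrocyte EV replicate 1, it was -1.66. Among the other members, 3 passed the low-count filter and none of these passed the test, so that of 4 members tested 1 was lower and 0 were higher by edgeR (0 higher also at an unadjusted p under 0.05, and with DESeq2). Across all 256 mature miRNAs tested 48% were called, with 25.8% lower and 22.3% higher in astrocyte EVs, so a share of 1 in 4 lower was near the background.

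MiR-15a-5p, the partner of miR-16-5p in Dleu2, was next in level. Its level was 143, 297 and 120 CPM in astrocyte EV replicates 1, 2 and 3 (30, 59 and 38 counts) and at 208, 571 and 334 CPM in NSC EV replicates 1, 2 and 3 (62, 127 and 54 counts). The groups overlapped, since astrocyte EV replicate 2 lay above NSC EV replicate 1. The log2 fold change was -0.99 (edgeR, SE 0.58, adjusted p = 0.187), and it was negative but not called in 17 of 17 alternatives. In both EV types replicate 2 held the highest level of miR-15a-5p and of miR-16-5p.

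MiR-15b-5p, the partner of miR-16-5p in Smc4, was near the limit of detection and did not pass the filter. It had 2, 6 and 18 counts in astrocyte EV replicates 1, 2 and 3 and 8, 20 and 21 counts in NSC EV replicates 1, 2 and 3, which gave 32.1 ± 23.6 CPM and 82.2 ± 52.0 CPM (SD, n = 3 each) with overlapping libraries. Without the filter its log2 fold change was -1.26 (edgeR, SE 1.09, adjusted p = 0.446). A difference in miR-15b-5p was not detected at these low counts and with this spread between libraries.

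MiR-195a-5p and miR-497a-5p, which are transcribed together and are known for halting the division of heart muscle cells after birth, depended on a single astrocyte EV library. MiR-195a-5p had 0, 0 and 38 counts in astrocyte EV replicates 1, 2 and 3 and 13, 29 and 6 counts in NSC EV replicates 1, 2 and 3. A count of 0 allows up to 3 counts, which is 14.3 CPM in replicate 1 and 15.1 CPM in replicate 2, while replicate 3 stood at 120 CPM. The NSC EV libraries were at 43.6, 130 and 37.1 CPM, so the groups overlapped through astrocyte EV replicate 3. Its log2 fold change was -0.74 (edgeR, SE 1.46, adjusted p = 0.687). Without astrocyte EV replicate 3 it was called lower (adjusted p = 0.00707), with both remaining astrocyte EV libraries at 0 counts.

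MiR-497a-5p had 0, 2 and 16 counts in astrocyte EV replicates 1, 2 and 3 and 19, 40 and 11 counts in NSC EV replicates 1, 2 and 3. Every astrocyte EV library, at up to 50.4 CPM, lay below every NSC EV library, at 63.7 to 180 CPM, a separation that many other mature miRNAs showed as well. The log2 fold change was -2.25 (edgeR, SE 1.11, adjusted p = 0.132) and did not pass the test. It was called without astrocyte EV replicate 3 (-4.43, adjusted p = 0.00973) and with library sizes from all rows other than hairpins (-3.05, adjusted p = 0.0464). The counts of miR-195a-5p and miR-497a-5p were highest in replicate 3 among astrocyte EVs and in replicate 2 among NSC EVs.

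**Figure D1:**
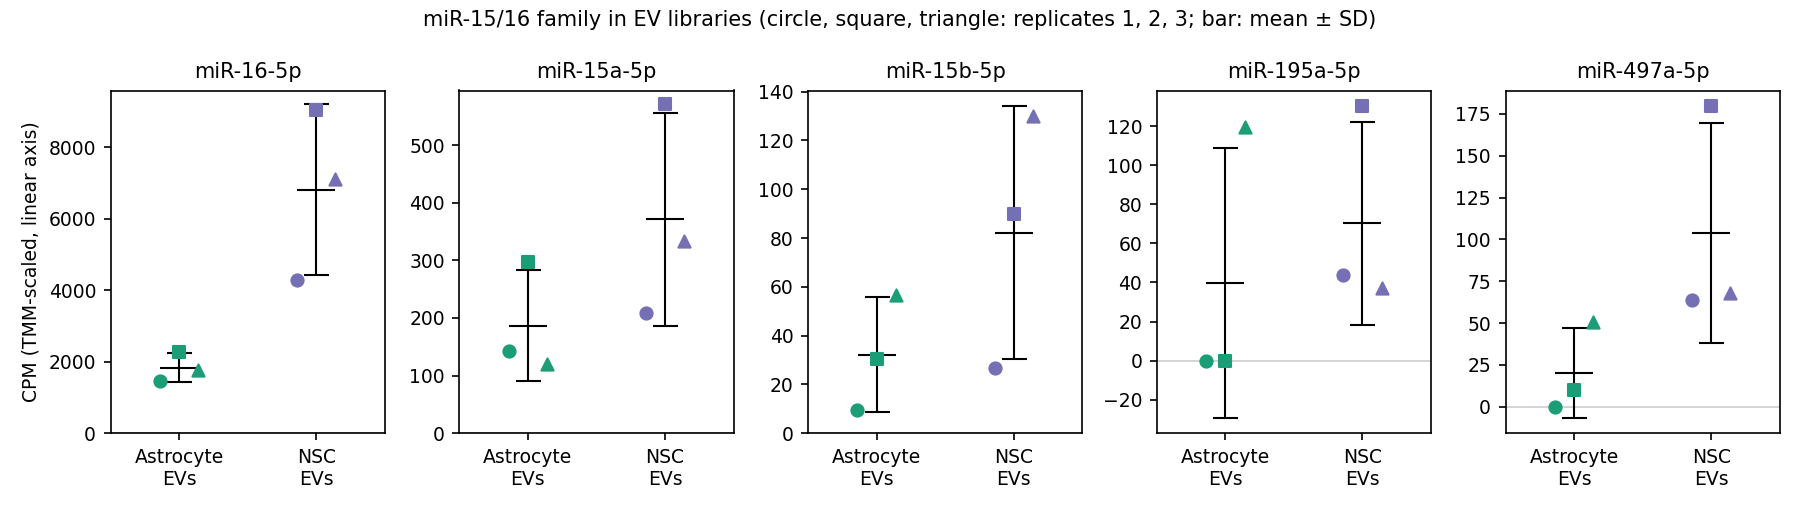
TMM-scaled CPM (linear axes, a scale for each panel) of the 5 members in each library, with green for astrocyte EVs, purple for NSC EVs, circles, squares and triangles for replicates 1, 2 and 3, and black bars for the mean ± SD of 3 libraries. The groups are separate for miR-16-5p and miR-497a-5p, as they are for many mature miRNAs outside the family, and overlap for the other members. In miR-195a-5p the third astrocyte EV library stands at 120 CPM with the others of that group at 0.

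The order of levels was alike in both EV types at the top only. MiR-16-5p held 83.5% to 90.6% of the 5 members' counts in the astrocyte EV libraries and 90.3% to 92.6% in the NSC EV libraries, and miR-15a-5p came second in every library except that it tied with miR-195a-5p at 38 counts in astrocyte EV replicate 3. Below them miR-497a-5p, miR-15b-5p and miR-195a-5p had mean levels of 104, 82.2 and 70.3 CPM in NSC EVs and of 20.1, 32.1 and 39.9 CPM in astrocyte EVs, with SDs of 52.0 to 65.8 CPM and 23.6 to 69.0 CPM. These neighbours did not differ beyond their spread. The mature lengths are 21 or 22 bases, so CPM is close to a level per length, although the efficiency with which each sequence enters a library was not measured.

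As a share of all mature miRNA counts, the 5 members together took 0.187% (95% Wilson interval 0.168% to 0.208%), 0.247% (0.226% to 0.269%) and 0.167% (0.155% to 0.180%) in astrocyte EV replicates 1, 2 and 3. They took 0.532% (0.504% to 0.560%), 1.09% (1.05% to 1.14%) and 0.700% (0.662% to 0.740%) in NSC EV replicates 1, 2 and 3. The intervals cover counting error only. The group means were 0.200% ± 0.0415 and 0.775% ± 0.288 (SD, n = 3 each), and the libraries of the EV types did not overlap. Since miR-16-5p held most of these counts, the sum repeats its difference.

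Ratios between members within a library do not depend on scaling. MiR-16-5p had 10.3, 7.63 and 14.7 counts for each count of miR-15a-5p in astrocyte EV replicates 1, 2 and 3 and 20.6, 15.8 and 21.3 in NSC EV replicates 1, 2 and 3. Every NSC EV library lay above every astrocyte EV library, by 0.86 on the log2 scale between the means (two-sided exact permutation over libraries, p = 0.1, which is the smallest that 3 libraries against 3 allow, and adjusted p = 0.3 over 3 ratios). The ratio of miR-15b-5p to miR-15a-5p ran from 0.0667 to 0.474 in astrocyte EVs, overlapping the range of 0.129 to 0.389 in NSC EVs (exact p = 0.6). The ratio of miR-16-5p to miR-15b-5p ran from 31.0 to 154 and from 54.7 to 160 and overlapped as well (exact p = 0.6).

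The 2 copies of miR-16-5p cannot be told apart from the mature reads. Their hairpins are shown to make this visible, with the 22 bases of miR-16-5p in capitals (RefSeq, GRCm38.p6, Mir16-1 on the minus strand of chr14:61631880-61631972 and Mir16-2 on the plus strand of chr3:69009902-69009996).
Mir16-1: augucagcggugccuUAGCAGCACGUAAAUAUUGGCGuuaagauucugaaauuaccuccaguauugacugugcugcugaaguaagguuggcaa
Mir16-2: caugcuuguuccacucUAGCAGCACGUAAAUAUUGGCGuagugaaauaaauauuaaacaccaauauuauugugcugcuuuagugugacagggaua

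The hairpin rows held nearly equal counts, with 305, 446 and 558 for mir-16-1 against 308, 458 and 558 for mir-16-2 in astrocyte EV replicates 1, 2 and 3, and 1285, 2006 and 1146 against 1282, 2018 and 1148 in NSC EV replicates 1, 2 and 3. The count table places the mature miRNA at the chromosome 14 copy alone. The 3p arms differ between the copies. MiR-16-1-3p had 2 counts over the 6 libraries, both in NSC EVs, and miR-16-2-3p had 8 counts in astrocyte EV replicate 2 and 8 in NSC EV replicate 2. These are too few to assign miR-16-5p to a locus in either EV type.

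Opposite arms were scarce throughout. Of 6 such arms 4 had a row, and none passed the low-count filter. MiR-15b-3p had 3, 2 and 0 counts in astrocyte EV replicates 1, 2 and 3 and 0, 5 and 4 counts in NSC EV replicates 1, 2 and 3, beside 26 and 49 counts of miR-15b-5p in the EV types. MiR-195a-3p had 4 counts in astrocyte EV replicate 1, where the 5p arm had 0, and 2 counts in NSC EV replicate 1.

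The host genes of both miR-16 copies were lower in astrocyte EVs as rows of the table, and the hairpin rows inside each gene had counts amounting to 25.2% to 92.7% of the host row. In a fit over all 41308 tested rows other than hairpins, of which 9.78% were called, Smc4 had a log2 fold change of -1.57 (edgeR, SE 0.35, adjusted p = 0.0339) and Dleu2 of -1.33 (SE 0.34, adjusted p = 0.0454). The Smc4 row had 446, 720 and 888 counts in astrocyte EV replicates 1, 2 and 3 and 1413, 2203 and 1367 counts in NSC EV replicates 1, 2 and 3. The hairpin rows mir-15b and mir-16-2 inside it add up to 64.7% to 70.2% of these counts in the astrocyte EV libraries and 85.8% to 92.7% in the NSC EV libraries. Less those counts, 133, 254 and 312 were left in astrocyte EVs and 123, 160 and 194 in NSC EVs.

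Fitted again on what was left, Smc4 had a log2 fold change of 0.20 (edgeR, SE 0.36, adjusted p = 0.750) and Dleu2 of -0.50 (SE 0.48, adjusted p = 0.532). For Dleu2 the hairpins mir-15a and mir-16-1 add up to 25.2% to 56.8% of the row in the astrocyte EV libraries and 64.3% to 79.7% in the NSC EV libraries, and 277, 384 and 1768 counts were left in astrocyte EVs against 343, 1184 and 603 in NSC EVs. Neither remainder passed this test. The subtraction takes each hairpin count to be held once by the host row, which the table does not show directly. With 1 library left out in turn, the whole row of Dleu2 kept log2 fold changes of -1.48 to -1.02 and that of Smc4 of -1.74 to -1.33. The call of Dleu2 was lost in all 6 of these fits and that of Smc4 in 5 of 6, the exception being the fit without astrocyte EV replicate 3 (edgeR, adjusted p = 0.0497). In the fits without astrocyte EV replicate 1 or 2, 0 rows of the table were called.

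**Figure D2:**
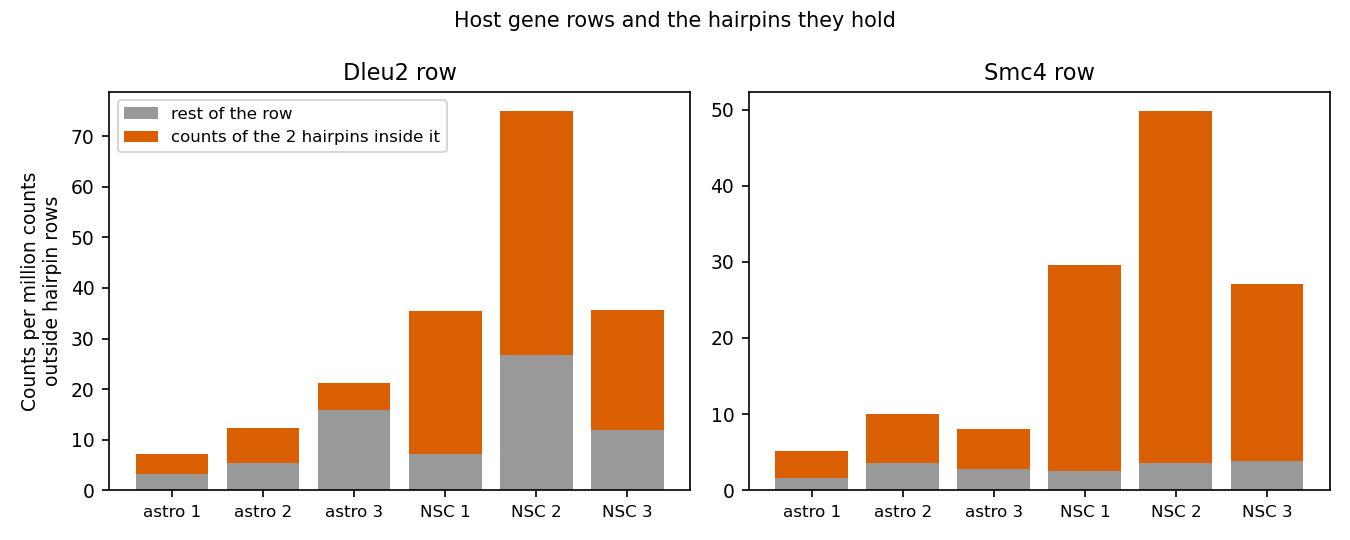
Counts of the Dleu2 and Smc4 rows in each library, scaled to 1000000 counts outside hairpin rows without TMM, split into the counts of the 2 miRNA hairpins inside each gene (orange) and the rest of the row (grey). The orange part makes up 85.8% to 92.7% of the Smc4 row in NSC EVs, while the grey part of Smc4 runs from 1.55 to 3.52 in astrocyte EVs and from 2.58 to 3.84 in NSC EVs.

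Relatives of the family lie outside the 5 members but share much of the seed. RefSeq holds 10 mature miRNA names with the family's seed, of which 6 have a row in the table, the sixth being miR-322-5p. MiR-503-5p lies beside it on the X chromosome and differs from the seed in its last base, and miR-103-3p and miR-107-3p, which act in insulin signalling, hold the same 7 bases shifted by 1. They are printed to show these shifts, with bases 2 to 8 in capitals (RefSeq, GRCm38.p6).
mmu-miR-322-5p: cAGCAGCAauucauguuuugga
mmu-miR-503-5p: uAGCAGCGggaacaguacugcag
mmu-miR-103-3p: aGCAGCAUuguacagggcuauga
mmu-miR-107-3p: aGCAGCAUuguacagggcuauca

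MiR-322-5p, whose cluster is induced in differentiating muscle, had 2, 10 and 19 counts in astrocyte EV replicates 1, 2 and 3 and 29, 23 and 14 counts in NSC EV replicates 1, 2 and 3. In CPM the groups were separate, as they were for many other mature miRNAs, at 39.9 ± 26.7 and 95.7 ± 8.46 CPM (SD, n = 3 each). The log2 fold change of -1.24 (edgeR, SE 0.72, adjusted p = 0.187) did not pass the test. The opposite arm, miR-322-3p, was lower in astrocyte EVs, at 36.6 ± 21.0 against 170 ± 56.3 CPM (SD, n = 3 each). The log2 difference was -2.19 (edgeR, SE 0.66, adjusted p = 0.0284), and the call was lost in 7 of 15 alternatives, among them the fits without astrocyte EV replicate 2 (-1.75, adjusted p = 0.0813) or without NSC EV replicate 1 (-1.88, adjusted p = 0.131), 2 (-2.48, adjusted p = 0.0606) or 3 (-1.91, adjusted p = 0.133). MiR-503-5p had 0 counts in all astrocyte EV libraries and 12, 9 and 12 counts in NSC EV replicates 1, 2 and 3. With up to 3 counts allowed over the astrocyte EV group, its level there was at least 11.7-fold lower. That value gives no error to the NSC EV counts and leaves out the spread between libraries. MiR-503-5p did not pass the filter, and without the filter it had an adjusted p of 0.0190 from edgeR.

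MiR-103-3p and miR-107-3p differ by a single base (G22C, with miR-103-3p first and positions counted from the 5′ end) and stood on opposite sides of the comparison. MiR-103-3p was at 3273, 4781 and 7119 CPM in astrocyte EV replicates 1, 2 and 3 and at 9728, 10073 and 9900 CPM in NSC EV replicates 1, 2 and 3. MiR-107-3p was at 2005, 3335 and 5640 CPM and at 1646, 1874 and 1794 CPM in the same order. As for many other mature miRNAs the groups were separate, with astrocyte EV libraries all below NSC EV libraries for miR-103-3p and all above them for miR-107-3p.

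By edgeR neither passed the test, with log2 fold changes of -0.97 (SE 0.36, adjusted p = 0.0586) and 1.05 (SE 0.42, adjusted p = 0.0723). MiR-103-3p was called lower with DESeq2 (adjusted p = 0.0221), without TMM (-1.16, adjusted p = 0.0231), with library sizes from all rows other than hairpins (-1.78, adjusted p = 0.0187) and without astrocyte EV replicate 3 (-1.46, adjusted p = 0.00822), but was at -0.62 without astrocyte EV replicate 1 (adjusted p = 0.257). MiR-107-3p was called higher without astrocyte EV replicate 1 (1.46, adjusted p = 0.0318), but was at 0.43 without astrocyte EV replicate 3 (adjusted p = 0.399) and at 0.25 with library sizes from all rows other than hairpins (adjusted p = 0.746). Within a library there were 1.63, 1.43 and 1.26 counts of miR-103-3p for each count of miR-107-3p in astrocyte EVs and 5.91, 5.38 and 5.52 in NSC EVs. This ratio was chosen after its values were seen and is given without a test. The sources used here do not give how reads that could match both were assigned.

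**Figure D3:**
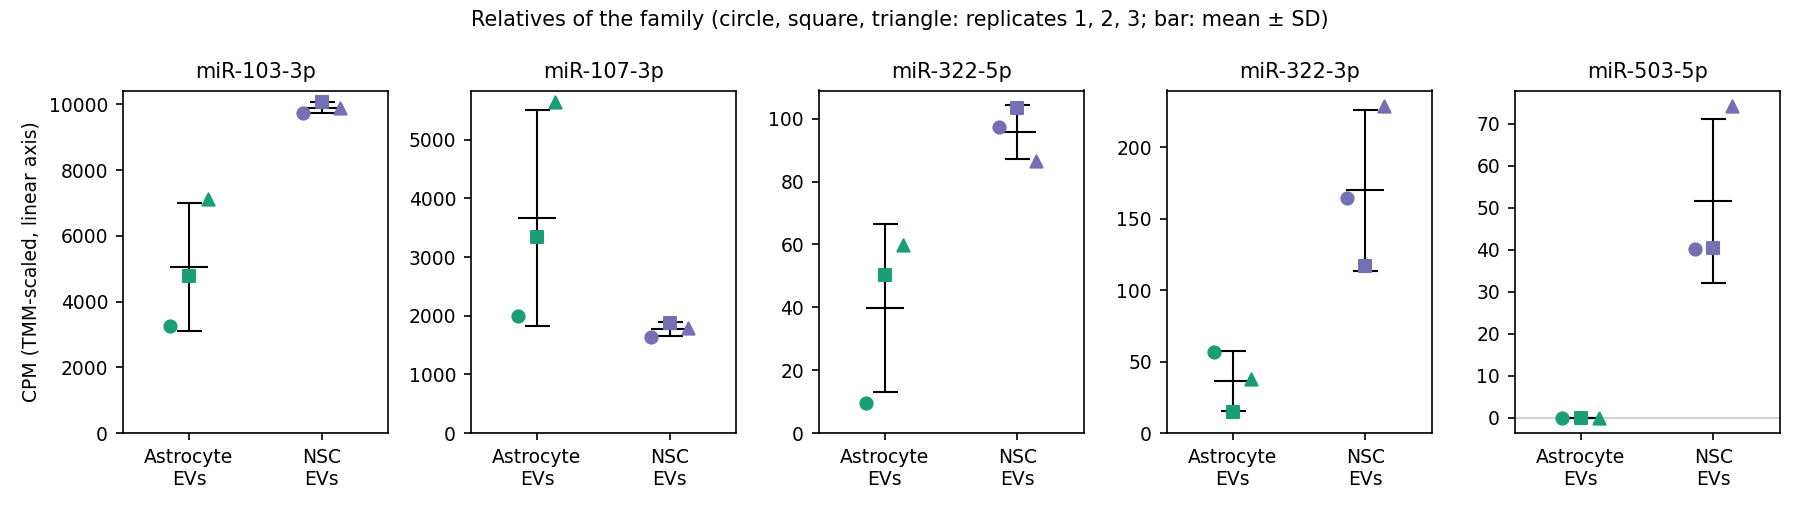
TMM-scaled CPM (linear axes, a scale for each panel) of 5 relatives of the family in each library, with green for astrocyte EVs, purple for NSC EVs, circles, squares and triangles for replicates 1, 2 and 3, and black bars for the mean ± SD of 3 libraries. MiR-107-3p is the only panel where the astrocyte EV libraries lie above the NSC EV libraries, and miR-503-5p is at 0 in all astrocyte EV libraries.

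The mature miRNAs whose profile over the 6 libraries was most like that of miR-16-5p were ranked by the root mean square difference of centred log2 CPM, among 196 tested miRNAs of at least 100 CPM that are not members. They were miR-30e-3p (0.17), miR-6238 (0.35), miR-125b-5p (0.37), miR-323-3p (0.38) and miR-132-3p (0.39). MiR-30e-3p had 447 ± 129 CPM in astrocyte EVs and 1646 ± 457 CPM in NSC EVs (SD, n = 3 each) and was lower by edgeR (log2 fold change -1.88, SE 0.41, adjusted p = 0.00802). On the same measure miR-15a-5p was 0.53 from miR-16-5p, miR-15b-5p 0.70, miR-497a-5p 0.85 and miR-195a-5p 1.39, so that these 5 miRNAs outside the family were nearer to miR-16-5p than any member was. The closest pairs of members were miR-15a-5p with miR-16-5p (0.53) and miR-15b-5p with miR-16-5p (0.70), followed by miR-195a-5p with miR-497a-5p (0.71), each of which shares a locus. The next pair was miR-15a-5p with miR-15b-5p (0.81), which lie on different chromosomes. Whether a shared locus brings members nearer was not tested. Low counts add to the distances of every member except miR-16-5p. For miR-15b-5p the nearest were miR-132-3p (0.58), miR-30e-3p (0.62), miR-103-3p (0.62), let-7c-5p (0.64) and miR-5106 (0.68).

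**Figure D4:**
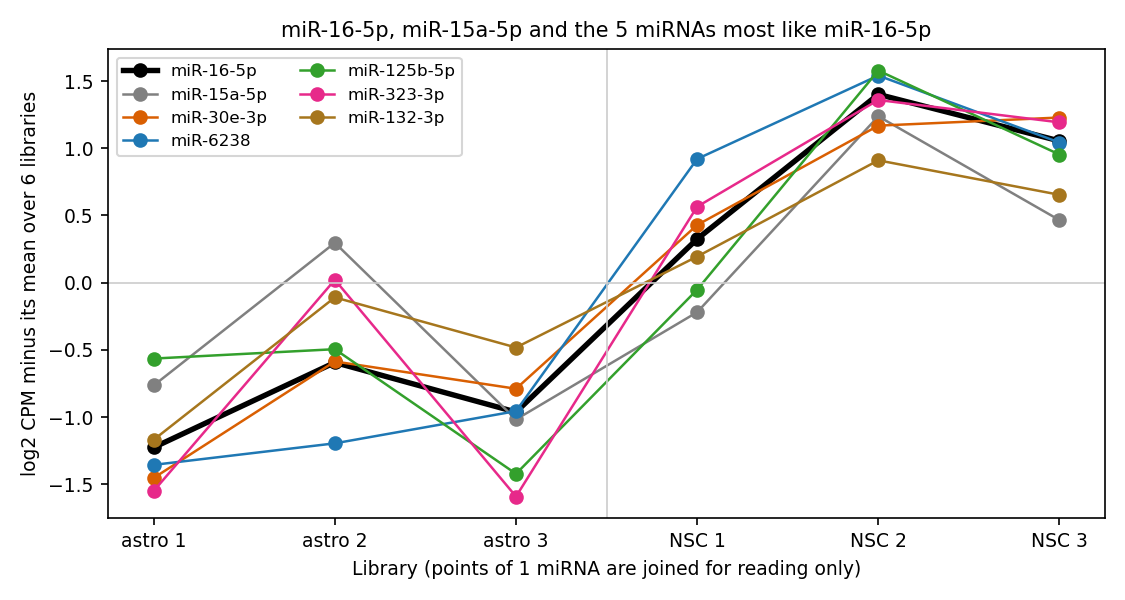
Log2 CPM of miR-16-5p (thick black), miR-15a-5p (grey) and the 5 miRNAs most like miR-16-5p, each minus its own mean over the 6 libraries. MiR-30e-3p follows miR-16-5p most closely, and in miR-15a-5p the second astrocyte EV library lies above the first NSC EV library.

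Other miRNAs known to act on the G1/S transition were set beside the family. Of 12 listed miRNAs that promote division all were tested, and 8 were lower and 3 were higher in astrocyte EVs. Over all tested mature miRNAs 25.8% were lower and 22.3% were higher. The median log2 fold change of the 12 was -2.68, beside -0.06 over all tested mature miRNAs. The most abundant of the 12 were miR-21a-5p (2.91 by edgeR, SE 0.43, adjusted p = 0.00271), miR-25-3p (-1.13, SE 0.33, adjusted p = 0.0264), miR-221-3p (1.37, SE 0.34, adjusted p = 0.0143) and miR-93-5p (-2.20, SE 0.40, adjusted p = 0.00481). All 8 lower miRNAs belong to the clusters named after miR-17 and miR-106b, with miR-93-5p and miR-25-3p in the latter, so neither their count nor the median rests on independent transcripts. MiR-92a-3p, also of the miR-17 cluster, was at 1.37 and was not called (edgeR, SE 0.70, adjusted p = 0.143). MiR-221-3p lowers the inhibitor p27.

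Of 14 listed miRNAs that restrain division 12 were tested, and 4 were higher, 3 were lower and 5 did not pass the test, with a median log2 fold change of 0.57. These counts stand beside 22.3% higher and 25.8% lower over all tested mature miRNAs. The 4 most abundant, let-7c-5p (-0.27), let-7b-5p (0.57), let-7a-5p (0.56) and miR-26a-5p (-0.14), were among those that did not pass (adjusted p = 0.183 to 0.709 from edgeR). MiR-16-5p thus moved in the direction of the 8 lower miRNAs that promote division and of 3 that restrain it.

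Fragments of mRNAs of the G1/S transition and survival, among them G1 cyclins, cyclin-dependent kinases and Bcl2, could be read from the gene rows of the same table. All 19 listed genes were tested. Of these 0 were called, beside 9.78% of all tested rows other than hairpins (edgeR, with 4 of the 19 at an unadjusted p under 0.05). The median log2 fold change of the 19 was 0.40, beside -0.04 over all tested rows. Rb1, Cdkn1a and Cdkn1b are on the list too, so the median is not one of mRNAs that the family is known to lower. Bcl2 had 374, 752 and 1066 counts in astrocyte EV replicates 1, 2 and 3 and 850, 5201 and 1240 counts in NSC EV replicates 1, 2 and 3, with a log2 fold change of -2.07 (edgeR, SE 0.63, adjusted p = 0.0742). NSC EV replicate 2 held most of it, and without that library the value was -0.96. It was called lower without TMM (-2.71, adjusted p = 0.0201) and without NSC EV replicate 1 (-2.46, adjusted p = 0.0491). Cdk6 (0.05, adjusted p = 0.941), Ccnd3, which encodes cyclin D3 (0.70, adjusted p = 0.166), and Rb1 (-0.10, adjusted p = 0.904) were the other rows of highest level. Reads of an EV small RNA library that fall in a gene row are short fragments, and their level is not that of the mRNA in the cells.

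Markers of other cell types also differed between the EV types. Their counts stand beside 22.3% called higher and 25.8% called lower in astrocyte EVs over all tested mature miRNAs. All 5 red blood cell miRNAs, a cell in which miR-16-5p is abundant too, were higher in astrocyte EVs, with a summed level of 38348 to 202811 CPM against 1860 to 3269 CPM and with miR-451a at 0 counts in NSC EVs. Of these rows miR-486a-5p and miR-486b-5p held nearly equal counts in every library and made up most of the sum, so the same reads may stand in it more than once. Their direction was opposite to that of miR-16-5p. The log2 fold change of miR-16-5p was -1.88 with these 5 rows left out, a step that kept all of its own counts. The part of red blood cells in miR-16-5p was not tested. All 3 tested mesenchymal miRNAs of 7 listed were higher (9354 to 141299 against 1145 to 2813 CPM, with miR-199b-5p and miR-214-3p at 0 in NSC EVs). Without the 7 rows miR-16-5p was at -1.93, again with its own counts kept. Of the tested mesenchymal miRNAs, miR-199a-3p and miR-199b-3p had identical counts in all 6 libraries and are 1 measurement, which the sum holds 2 times. All 4 neuronal miRNAs (223 to 428 against 20086 to 28108 CPM, with miR-124-3p at 0 in astrocyte EVs) and both endothelial miRNAs (69.2 to 191 against 934 to 1730 CPM) were lower, as miR-16-5p was.

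Of 4 white blood cell and microglial miRNAs 2 were tested, of which 1 was higher and 1 was lower. The 4 summed to 162 to 705 against 70.4 to 144 CPM, with miR-150-5p at 0 in astrocyte EVs and miR-223-3p and miR-142a-3p at 0 in NSC EVs. Of 4 muscle, liver and serum miRNAs 1 was higher (2014 to 6283 against 1981 to 2295 CPM), and of 2 oligodendrocyte miRNAs 1 was tested and did not pass (10.1 to 126 against 40.4 to 80.4 CPM). These counts stand beside the same 22.3% higher and 25.8% lower over all tested mature miRNAs. The lists held no miRNA that defines astrocytes or NSCs, so the labelled cell types were not checked directly. The part of neuronal, endothelial or other cells in the levels of the family was not tested.

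The libraries held 177093 to 399211 mature miRNA counts, or 0.212% to 0.538% of the table. Between replicates the chi-square per degree of freedom over mature miRNAs was 20.7 for astrocyte EV replicates 1 and 2, 295 to 330 for each of them against replicate 3, and 55.7 to 97.4 among NSC EVs, so that no pair was as alike as sampling noise allows and astrocyte EV replicate 3 stood apart. Without it miR-16-5p was called at an adjusted p of 0.00364 (edgeR), and 3 members rather than 1 were called lower, while the mature miRNAs called lower went from 66 to 93. The labels name no separate cultures or animals for the replicates, so the p-values measure the spread between these libraries, which may be technical.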

How the data were processed

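Small RNA libraries from 3 astrocyte EV and 3 NSC EV samples were analyzed. The authors deposited whole-number counts for 61949 annotated rows, without normalization and with 1 column per library. Per the labels, reads were processed with Bowtie and Bowtie2, cutadapt, SAMtools, bedtools, FastQC and DESeq on mm10. The sources used here do not give how reads mapping to several places were treated, and reads of near-identical miRNAs may be shared. The sources conflict on the library kit and sequencer. Deposited tables of normalized group means, log2 fold changes and adjusted p-values were not used.

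Mature rows (902) were analyzed without the 788 hairpin rows. EdgeR 4.0.16 in R 4.3.3 was used with TMM, its default filter, a quasi-likelihood test and Benjamini-Hochberg adjustment over all tested rows, with calls under 0.05 and group as the only term. Rows other than hairpins (61161) were fitted in the same way. DESeq2 1.42.0 was an alternative, as were other scalings, filters, left-out libraries, a replicate block, hairpin rows, red blood cell miRNAs left out and a test against a 2-fold change. Leaving out mesenchymal miRNAs and subtracting hairpins from host rows were added after seeing the data. The tests were tried on simulated data. Likeness used a prior count of 2. Other steps used Python 3.11.15, pandas 2.3.3 and scipy 1.17.1.

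The members and lists were chosen with earlier results of these data known. Named miRNAs were the members, their opposite arms and relatives, the 5 most like miR-16-5p and miR-15b-5p, the 4 most abundant of each cell cycle list, the host genes and the 4 most abundant G1/S rows.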

Additional observations from a re-analysis of the deposited data

How the results depend on the processing

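MiR-16-5p kept its direction and its call in all 18 alternatives, from -2.68 with library sizes from all rows other than hairpins to -1.66 without astrocyte EV replicate 1. Its hairpin rows are among these alternatives and hold nearly the same counts, so they are no independent check. With the replicate number as a block the log2 fold change of miR-16-5p was -1.85 (adjusted p = 0.0125 from edgeR), and 1 member was called lower. Deviations of same-numbered libraries correlated at 0.06, 0.14 and 0.07, and those of libraries with different numbers at -0.12 to 0.05. The same-numbered values were the highest but weak, and the numbers were not taken as pairs. The block gave 45 higher and 55 lower of the mature miRNAs and left miR-322-3p, at -2.30, uncalled (edgeR, adjusted p = 0.0632). Library sizes from all rows other than hairpins gave 2 members called lower, miR-497a-5p at -3.05 and 32 mature miRNAs called higher and 96 lower, against 57 and 66, and the members' shares as percentages of those rows were 0.000572% in astrocyte EVs and 0.00346% in NSC EVs. A minimum of 10 counts in every library gave 33 higher and 33 lower of the mature miRNAs, as fewer rows were tested.

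With 1 library left out in turn, the number of members called lower ran from 1 to 3, mature miRNAs called lower from 45 to 93 and higher from 34 to 69 (the highest of all 3 counts without astrocyte EV replicate 3), miR-195a-5p from -7.04 to -0.030 and miR-497a-5p from -4.43 to -1.57, and the lowest values of both came without astrocyte EV replicate 3 (for miR-195a-5p a fitted value against 0 counts, which is no bound). The difference in the log2 ratio of miR-15b-5p to miR-15a-5p ran from -1.27 to 0.14 and that of miR-16-5p to miR-15b-5p from -0.99 to 0.17. Called rows other than hairpins ran from 0 to 2786 higher (4 without NSC EV replicate 3) and from 0 to 1572 lower, with 0 in both directions without astrocyte EV replicate 1 or 2, and were 738 higher and 3217 lower without TMM, against 2290 and 1750. The Smc4 row, called lower as a whole, was at 0.20 once its hairpins were subtracted. Among uncalled rows, Cdk6 was at -0.52 without TMM. With libraries left out Cdk6 ran from -0.15 to 0.26, Rb1 from -0.45 to 0.29 and the row C430049B03Rik from -0.83 to 0.037. That last row was taken as the host of miR-322 and miR-503, although GENCODE vM21 annotates only a miRNA gene at miR-322-5p. The cause of these changes between settings was not tested. Counts of 0 to 40 per library limit what can be said of miR-15b-5p, miR-195a-5p and miR-497a-5p.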
